A study of Rattus norvegicus with 12 samples.

Results

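Ly6al, Bean1, Grin2c, Ano5, Lrrc3b, Cacna2d4 and Slc5a5 are 7 genes, of 19230 rows in the expression table, whose signal was higher in every lung library of rats lacking the aryl hydrocarbon receptor (Ahr-KO) than in every wild-type (WT) lung library when both were exposed to SuHx. They were chosen by symbol, with that ordering of the libraries as the criterion, so their Ahr-KO and WT SuHx values are given as a description and not tested. Of 15234 genes tested in the lung, 1788, or 11.7%, had the same ordering. SuHx combines the VEGF receptor inhibitor Sugen (SU5416) with hypoxia and is a standard rat model of pulmonary arterial hypertension. RNA was sequenced from Sprague-Dawley rats in 4 groups, each of 3 libraries: Ahr-KO lung at day 4 of SuHx, WT lung at day 4 of SuHx, WT endothelial cells (ECs) in normoxia, and WT lung in normoxia at day 0. The ECs are labelled day 4 in the sample records and 0 in the column names. No Ahr-KO normoxia lung was analysed here, so an effect of the genotype before SuHx and one that needs SuHx cannot be told apart. Libraries are named by group and by the column suffix 0, 1 or 2.

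The aryl hydrocarbon receptor (AhR) is a ligand-activated transcription factor that moves to the nucleus, pairs with ARNT and binds DNA at sites built around a GCGTG core. It is best known for inducing xenobiotic-metabolising enzymes such as Cyp1a1. The 7 genes are not among its classic targets. Most encode membrane proteins: a GPI-anchored surface protein of the Ly6 family (Ly6al, which the annotation also lists as Ly6a, the symbol that in mouse belongs to the stem cell antigen Sca-1), a leucine-rich-repeat protein (Lrrc3b), a partner of the ubiquitin ligase NEDD4 first studied in brain (Bean1), the GluN2C subunit of the NMDA glutamate receptor (Grin2c), an auxiliary subunit of voltage-gated calcium channels known from the retina (Cacna2d4), an anoctamin whose human gene is mutated in muscular dystrophy (Ano5), and the sodium iodide symporter of the thyroid (Slc5a5).

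Values are the deposited signal, which is read counts divided by 1 factor per library, so that 1 read was worth 0.745 to 1.25. The libraries held 20.04 to 28.6 M reads. Ahr itself did not separate the genotypes: it had 2515, 2523 and 1800 in the Ahr-KO SuHx libraries, against 1996, 3073 and 1740 in the WT SuHx libraries (log2 fold change 0.03 ± 0.26 SE, limma adjusted p = 0.966). A signal summed over the whole gene does not show whether the RNA can still make protein, and the sources used here do not give the part of Ahr that was deleted. The RNA of its targets did separate them. Cyp1a1 averaged 4.83 ± 0.835 in Ahr-KO SuHx lung and 69806 ± 4871 in WT SuHx lung (SD, n = 3 each), and all 5 listed AhR targets (Cyp1a1, Cyp1b1, Ahrr, Nqo1 and Tiparp) fell in Ahr-KO SuHx lung. In the ECs all 8 endothelial markers were higher than in normoxia lung (limma), beside 26.1% of all genes. So were all 4 B cell markers, 3 of 5 neutrophil markers and 2 of 6 T and NK cell markers. Another 2 T and NK cell markers and 3 of 5 macrophage markers were lower. The median log2 fold change was 1.57 for the endothelial list and 2.05 for the B cell list, so the EC libraries also held leukocyte RNA. The Ahr-KO libraries also held more ribosomal RNA, with 3007 to 4398 in the row of 18S, 45S and 5.8S rRNA against 347 to 848 in WT SuHx lung, and the part of this in the differences given here was not tested.

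Since AhR is the factor removed, the 300 bases around the start of each gene (250 before, 50 after) were searched for its GCGTG core on both strands. RefSeq promoter sequences of the GRCr8 build were at hand for 5 of the 7 genes, and not for Ly6al or Cacna2d4. The core was found in 2 of these 5, Ano5 and Lrrc3b, in a table where 9939 of 33469 promoters, or 29.7%, held it. The 4 AhR targets in the table all held it. The windows of the genes with the core are shown, with that of Bean1 as one without it. Capitals mark CACGC, which is GCGTG on the opposite strand. Ano5 lies at chr1:110222161-110222460 on the plus strand, Lrrc3b at chr15:12404059-12404358 on the plus strand, and Bean1 at chr19:792804-793103 on the minus strand, each printed in the direction of transcription.
Ano5: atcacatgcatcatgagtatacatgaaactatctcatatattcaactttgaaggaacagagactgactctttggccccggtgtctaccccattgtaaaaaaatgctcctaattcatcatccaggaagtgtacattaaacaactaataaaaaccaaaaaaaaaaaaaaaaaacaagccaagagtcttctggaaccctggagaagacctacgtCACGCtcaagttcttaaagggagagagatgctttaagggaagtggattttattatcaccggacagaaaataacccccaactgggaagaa
Lrrc3b: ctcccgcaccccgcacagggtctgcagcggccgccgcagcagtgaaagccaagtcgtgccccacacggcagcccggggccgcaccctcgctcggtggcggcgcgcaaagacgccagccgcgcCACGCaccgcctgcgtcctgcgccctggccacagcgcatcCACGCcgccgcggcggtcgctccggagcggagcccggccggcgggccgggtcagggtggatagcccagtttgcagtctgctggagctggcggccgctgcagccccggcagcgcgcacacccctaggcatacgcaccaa
Bean1: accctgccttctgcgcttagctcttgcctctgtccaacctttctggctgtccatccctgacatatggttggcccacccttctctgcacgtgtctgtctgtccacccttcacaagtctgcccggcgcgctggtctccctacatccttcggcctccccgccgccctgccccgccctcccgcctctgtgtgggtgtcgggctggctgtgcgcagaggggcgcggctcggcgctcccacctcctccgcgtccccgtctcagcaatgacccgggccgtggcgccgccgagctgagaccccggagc
The Ano5 window was AT-rich, with 38.3% G and C, and its only core began 39 bases upstream of the start. The Lrrc3b window had 75.7% G and C, 40 CpG sites and cores that began 128 and 88 bases upstream. The Bean1 window had 68.7% G and C and 25 CpG sites. The median over all promoters was 51.7% G and C. A match is a string of letters and not a measured binding site, and the absence of a match says only that these letters are not in this window.

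Ly6al had by far the widest separation. Its signal was 685, 1014 and 495 in the Ahr-KO SuHx libraries, against 4.73, 9.18 and 3.72 in the WT SuHx libraries and 13.5, 17.0 and 12.3 in normoxia lung. All 6 WT lung libraries were at 17.0 or below, and no library lay between them and the Ahr-KO group. The lowest Ahr-KO value was 54.0 times the highest WT SuHx value. The WT SuHx values rest on 5, 12 and 5 reads and the Ahr-KO values on 885, 1145 and 652 reads, so the size of the ratio is limited by the WT counts. The log2 fold change was 6.75 ± 0.36, or 108-fold, against WT SuHx lung, and 5.53 ± 0.36, or 46.3-fold, against normoxia lung. WT SuHx lung itself was below normoxia lung without overlap (log2 fold change -1.22 ± 0.36). Ahr-KO lung thus lay on the far side of normoxia lung from WT SuHx lung. In bulk tissue, more cells that express a gene and more RNA per cell cannot be told apart, here and in what follows.

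Lrrc3b was low in both WT lung groups. It had 97.5, 62.0 and 113 in the Ahr-KO SuHx libraries, against 22.7, 13.8 and 22.3 in the WT SuHx libraries and 15.1, 17.0 and 23.8 in normoxia lung. The WT groups overlapped each other and all 6 of their libraries lay below every Ahr-KO library. The log2 fold change was 2.15 ± 0.33 against WT SuHx lung and 2.21 ± 0.33 against normoxia lung, whereas that of WT SuHx against normoxia lung was 0.06 ± 0.33.

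Grin2c had the same arrangement with a smaller gap. Its signal was 575, 477 and 428 in the Ahr-KO SuHx libraries, against 239, 120 and 140 in the WT SuHx libraries and 176, 248 and 209.5 in normoxia lung. The 2 WT lung groups overlapped, and both stayed below the Ahr-KO group. The lowest Ahr-KO value was 1.79 times the highest WT SuHx value, the smallest such ratio of the 6 genes that had reads in WT SuHx lung. The log2 fold change was 1.62 ± 0.26 against WT SuHx lung and 1.22 ± 0.26 against normoxia lung, beside -0.40 ± 0.26 for WT SuHx against normoxia lung. Its values were whole numbers of reads in 3 of the 12 libraries, whereas those of the other 6 genes were whole in all 12, so reads may be shared between Grin2c and another gene and its level is less certain.

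Bean1 followed another arrangement, in which WT SuHx lung stood apart. It had 1331, 1310 and 1026 in the Ahr-KO SuHx libraries, against 445, 436 and 306 in the WT SuHx libraries and 1047, 1145 and 1242 in normoxia lung. Ahr-KO SuHx and normoxia lung overlapped, and all 6 of their libraries were above every WT SuHx library. On the log2 scale the fold change was 1.64 ± 0.16 for Ahr-KO against WT SuHx lung, -1.55 ± 0.16 for WT SuHx against normoxia lung, and 0.09 ± 0.16 for Ahr-KO SuHx against normoxia lung. The last of these is smaller than its standard error.

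Ano5 was arranged like Bean1. Its signal was 51.9, 54.9 and 57.7 in the Ahr-KO SuHx libraries, against 16.1, 20.6 and 17.9 in the WT SuHx libraries and 66.0, 39.2 and 49.8 in normoxia lung. The Ahr-KO libraries lay within the range of normoxia lung, and WT SuHx lung lay below both. Its log2 fold change was 1.55 ± 0.25 for Ahr-KO against WT SuHx lung, -1.43 ± 0.25 for WT SuHx against normoxia lung and 0.11 ± 0.25 for Ahr-KO SuHx against normoxia lung.

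Cacna2d4 stood between these arrangements. It had 40.2, 31.0 and 21.3 in the Ahr-KO SuHx libraries, against 3.78, 6.88 and 5.96 in the WT SuHx libraries and 19.1, 10.2 and 21.5 in normoxia lung. WT SuHx lung was below both other groups, and Ahr-KO SuHx lung overlapped normoxia lung through 1 library on each side. The log2 fold change was 2.27 ± 0.39 for Ahr-KO against WT SuHx lung, -1.42 ± 0.39 for WT SuHx against normoxia lung, and 0.85 ± 0.39 for Ahr-KO SuHx against normoxia lung. The WT SuHx values correspond to 4, 9 and 8 reads.

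Slc5a5 was at the limit of detection. It had 4.64, 7.97 and 5.32 in the Ahr-KO SuHx libraries, was listed at 0 in all 3 WT SuHx libraries, and had 3.98, 3.41 and 1.53 in normoxia lung. These are 6, 9 and 7 reads in Ahr-KO SuHx lung and 5, 4 and 2 reads in normoxia lung. The groups did not overlap, but no fold change is given against a group listed at 0. Its reads are too few to place Ahr-KO SuHx lung above normoxia lung with any precision (log2 fold change 0.84 ± 0.45).

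**Figure D1:**
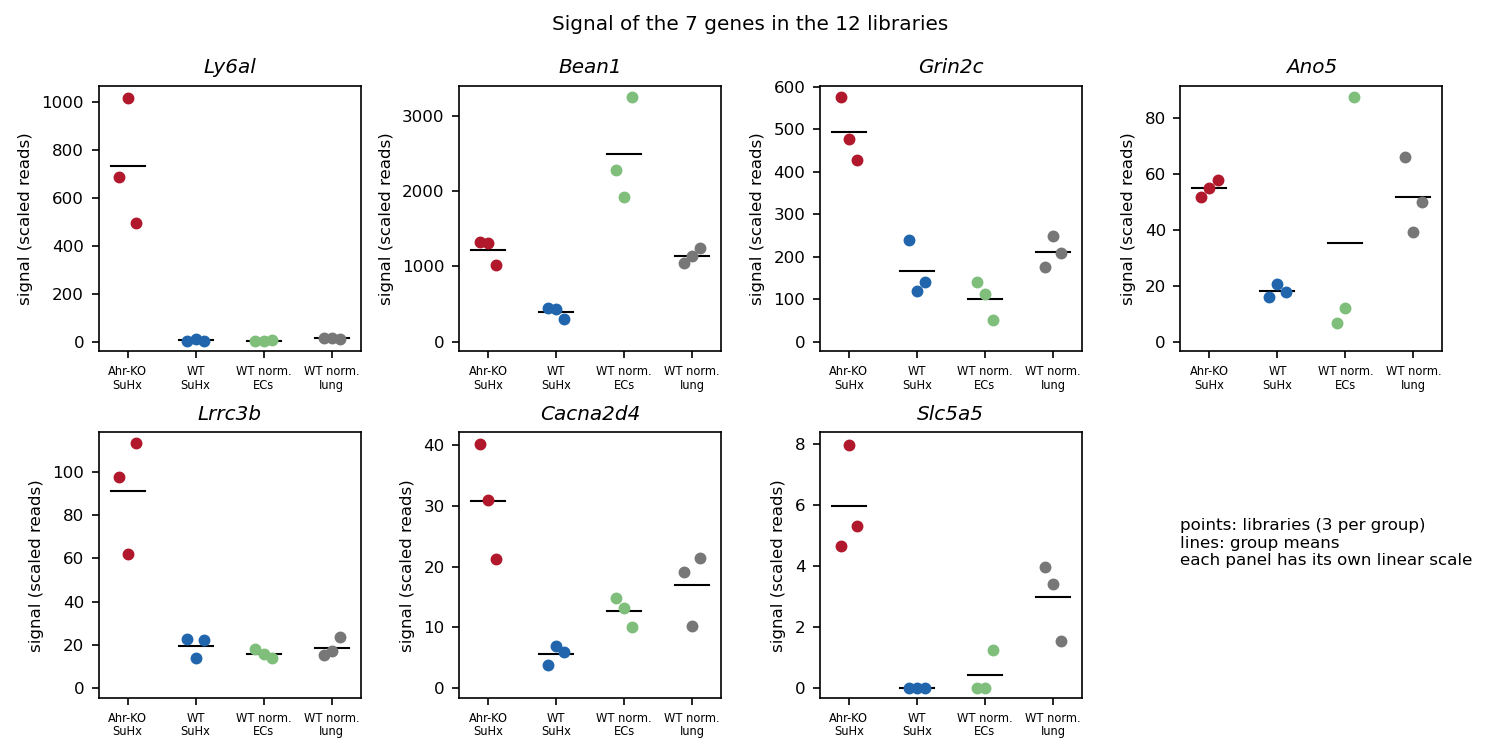
Signal (scaled reads, linear axis from about 0, a separate scale per gene) of each of the 7 genes in the 12 libraries, with points for libraries and lines for the means of 3. The Ahr-KO SuHx points lie above the WT SuHx points in every panel, and the normoxia lung points lie level with Ahr-KO for Bean1 and Ano5 but near WT SuHx for Grin2c and Lrrc3b.

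Against normoxia lung, 4 of the 7 genes (Ly6al, Grin2c, Lrrc3b and Slc5a5) were higher in every Ahr-KO SuHx library, where 15.1% of all tested genes were, and 3 overlapped. The median log2 fold change of the 7 was 0.85, against -0.03 over all genes. WT SuHx lung was lower than normoxia lung without overlap for 5 genes (Ly6al, Bean1, Ano5, Cacna2d4 and Slc5a5), where 19.7% of all tested genes were, and overlapped for Grin2c and Lrrc3b. The median over the 6 genes other than Slc5a5 was -1.32, against -0.04 over all genes. These 3 lung comparisons share libraries, and each uses a group that the choice of the genes also used, so the counts describe the arrangement and are not tests.

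**Figure D2:**
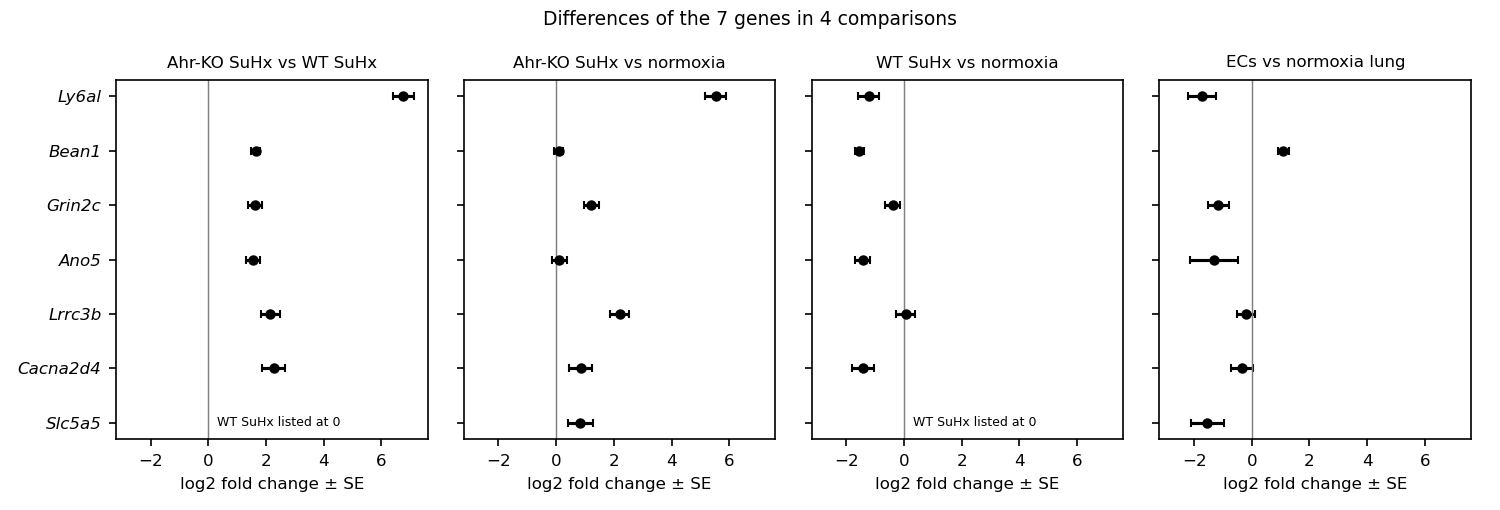
Log2 fold changes (log2 of signal plus 1) with standard errors for the 7 genes in 4 comparisons, 3 from 1 fit of the 9 lung libraries and the last from a fit of ECs and normoxia lung. Ly6al lies at 6.75 and 5.53 in the 2 comparisons of Ahr-KO SuHx lung, Bean1 and Ano5 lie near 0 against normoxia lung, and no point is drawn for Slc5a5 where WT SuHx lung was listed at 0.

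The choice of the genes also fixed how near they lie to others. Ordered by fold, 3 further rows stood among them, namely Rpl39 at 10.6-fold, the ribosomal RNA row at 7.20-fold and Bmp2 at 5.40-fold. Ano5, the last of the 7, was at 2.92-fold with 51.9 in its lowest Ahr-KO library and 20.6 in the highest WT SuHx library. Pdgfd, a platelet-derived growth factor just below it, was at 2.91-fold with 510.1 and 195.8. Their folds were nearly equal.

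The 3 Ahr-KO libraries did not order the genes alike. Ahr-KO 0 was highest for 3 of the 7 genes, Ahr-KO 1 for 2 and Ahr-KO 2 for 2, while Ahr-KO 2 was also lowest for 4. Ano5 varied least, with a coefficient of variation of 5.37%, and Ly6al most, with 35.9%.

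ECs and normoxia lung are the 2 groups that had no part in choosing the genes, and the 7 were tested between them. The comparison is of isolated cells, with leukocyte RNA among them, with whole tissue. In it 8539 of 15186 tested genes, or 56.2%, differed at an adjusted p under 0.05 (limma). Of all tested genes, 26.1% were higher and 30.1% lower in ECs. Of the 7 genes, Bean1 was higher in ECs, Ly6al and Grin2c were lower, and 4 did not pass the test. Their median log2 fold change was -1.16, against -0.05 over all genes. The share of 3 in 7 was below that of all genes. Without regard to the test, 1 gene was higher in every EC library (30.4% of all genes) and 3 were lower in every EC library (35.1%).

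Bean1 was the gene of the 7 that was higher in ECs. It had 2287, 1928 and 3253 in ECs, against 1047, 1145 and 1242 in normoxia lung, with no overlap (log2 fold change 1.09 ± 0.19, or 2.13-fold, limma adjusted p = 0.00225). Its EC values were also above all Ahr-KO SuHx and WT SuHx lung values. In the rat gene order Bean1 lies beside Cdh5, which encodes the endothelial junction protein VE-cadherin and which did not pass the test between Ahr-KO and WT SuHx lung (log2 fold change 0.10 ± 0.21, adjusted p = 0.851). The summed signal of the 8 endothelial markers was 64811 to 80104 in Ahr-KO SuHx lung and 71287 to 74310 in WT SuHx lung. The part of endothelial cells in the Bean1 difference, and that of leukocytes in its EC signal, was not tested.

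Ly6al was near the limit of detection in ECs, with 2.28, 2.41 and 7.49, against 13.5, 17.0 and 12.3 in normoxia lung (log2 fold change -1.73 ± 0.48, limma adjusted p = 0.0183). The EC values are 2, 2 and 6 reads. The call was lost when any of 4 of the 6 libraries was left out (normoxia 0, normoxia 1, EC 0 or EC 1), with adjusted p between 0.0518 and 0.0594, and after quantile normalization, with an adjusted p of 0.107. Grin2c had 140, 112 and 51.2 in ECs, against 176, 248 and 209.5 in normoxia lung (log2 fold change -1.16 ± 0.37, limma adjusted p = 0.032). That call was lost without any 1 of the normoxia libraries 0, 1 or 2 or EC 1 (adjusted p 0.0513 to 0.088), without limma's trend (0.051), and after quantile normalization (0.168).

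The other genes did not pass in this comparison. Ano5 had 6.83, 12.1 and 87.4 in ECs, against 66.0, 39.2 and 49.8 in normoxia lung (log2 fold change -1.31 ± 0.84, limma adjusted p = 0.224). EC 2 alone was above normoxia lung, and without it the log2 fold change was -2.35 with an adjusted p of 0.00324. EC 2 also stood apart in Rpl39, at 1098 against 93.4 and 104.8 in the other ECs. Lrrc3b had 18.2, 15.7 and 13.7 in ECs and overlapped normoxia lung (-0.20 ± 0.32, adjusted p = 0.618), as did Cacna2d4 with 14.8, 13.3 and 9.98 (-0.35 ± 0.39, adjusted p = 0.48). Both directions turned after quantile normalization, to 0.53 for Lrrc3b and 0.38 for Cacna2d4. Slc5a5 had 0, 0 and 1.25 in ECs, that is 1 read in all, and narrowly missed the threshold (-1.54 ± 0.57, adjusted p = 0.0517), passing it in 6 of 13 alternatives.

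The genes that flank Ly6al are its own relatives. Of the 6 annotated neighbours, 4 rows were tested, none passed between Ahr-KO and WT SuHx lung (limma adjusted p; 3 had an unadjusted p under 0.05), and 3 were higher in every Ahr-KO library, beside 11.7% of all genes. These 3 are named because of their values. The merged row of Ly6i and RGD1565410 had 11004, 14502 and 8564 in Ahr-KO SuHx lung, against 4308, 2135 and 6081 in WT SuHx lung and 1995, 5042 and 2211 in normoxia lung (log2 fold change 1.54 ± 0.43 against WT SuHx, adjusted p = 0.176). Ly6l had 2865, 3159 and 2712 in Ahr-KO SuHx lung, against 1523, 1609 and 2123 in WT SuHx lung and 3117, 2553 and 2230 in normoxia lung (0.75 ± 0.15 against WT SuHx, adjusted p = 0.081). For Ly6l, Ahr-KO SuHx lung overlapped normoxia lung, which was not so for Ly6al.

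Gpihbp1, which carries lipoprotein lipase across capillary endothelium, had 596, 384 and 707 in Ahr-KO SuHx lung, against 381, 310 and 252 in WT SuHx lung (0.81 ± 0.33, adjusted p = 0.335). Its lowest Ahr-KO value was just above the highest WT SuHx value. Ly6h, between Ly6l and Gpihbp1, was barely detected in either group. Genes of this family resemble each other in sequence, so reads may be shared among them. The values of Ly6al were whole reads in all 12 libraries, so its reads were not split. That does not show whether whole reads of a relative were assigned to it, and the annotated neighbour Ly6al1 had no row of its own.

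**Figure D3:**
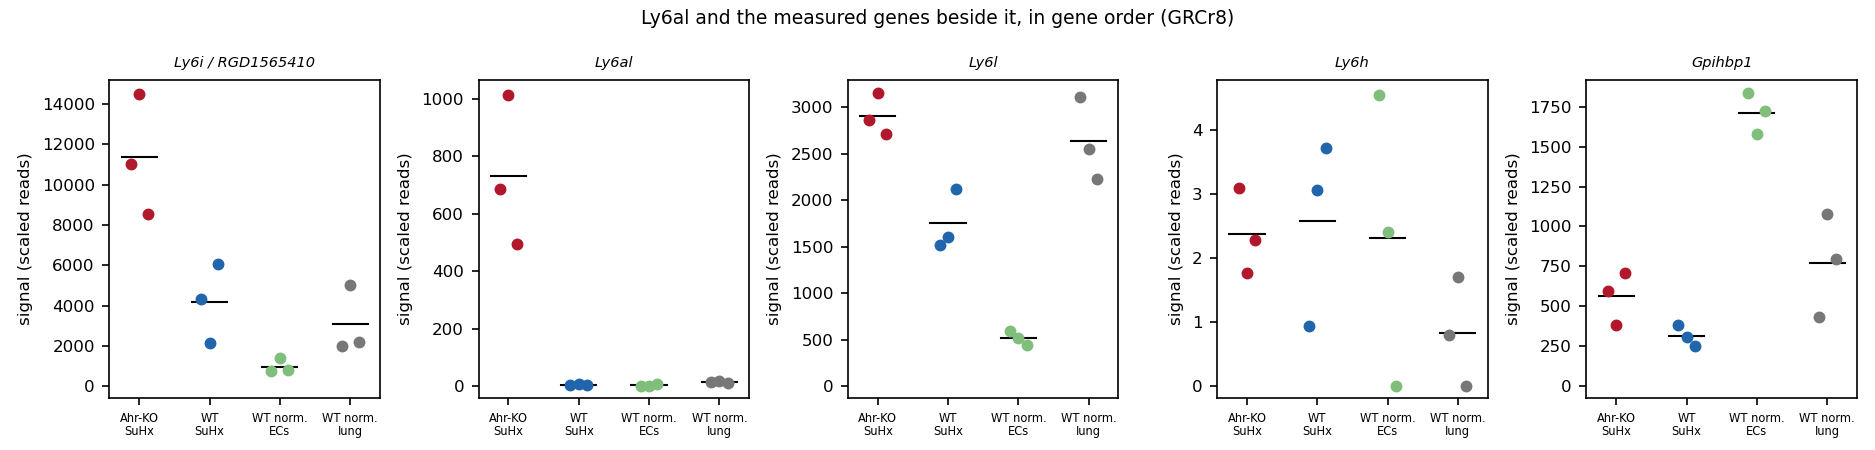
Signal (scaled reads, linear axes) of Ly6al and the measured genes next to it, in their order in the GRCr8 annotation, with points for libraries and lines for means of 3. The row of Ly6i and RGD1565410, Ly6l and Gpihbp1 are higher in all Ahr-KO SuHx than in all WT SuHx libraries, by less than Ly6al, and Ly6h overlaps.

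Around all 7 genes together, 31 neighbours of 42 were tested, and none passed in either direction between Ahr-KO and WT SuHx lung (limma; 6 at an unadjusted p under 0.05). Of the 31, 6 were higher in every Ahr-KO library, beside 11.7% of all genes, and 3 of these 6 are those beside Ly6al. The others were Adipor2 and Wnt5b beside Cacna2d4 and Fancf beside Ano5. In the GRCr8 annotation 0 of the 7 genes lie on the chromosome of Ahr, and of the 5 tested neighbours of Ahr 0 passed (limma; 0 at an unadjusted p under 0.05). Of these 5, 1 was higher in every Ahr-KO library, beside 11.7% of all genes. That gene, Hdac9, had 140, 126 and 120 in Ahr-KO SuHx lung, against 111, 103 and 93.8 in WT SuHx lung.

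Among the listed relatives of the 7 genes, only Ly6/uPAR genes passed the test between Ahr-KO and WT SuHx lung. Of all genes 0.499% passed in either direction, so a count of 0 in the short lists that follow says little about the relatives. Of 25 other Ly6/uPAR genes tested, 0 passed as higher and 2 as lower in Ahr-KO than in WT SuHx lung, beside 0.197% and 0.302% of all genes, with a median log2 fold change of 0.22 against 0.02 over all genes. The 2 that fell were Lypd1, a modulator of nicotinic receptors, and Plaur, the urokinase receptor. Lypd1 had 318, 263 and 256 in Ahr-KO SuHx lung, against 1068, 1163 and 787 in WT SuHx lung and 51.7, 29.9 and 53.8 in normoxia lung (log2 fold change -1.84 ± 0.24, limma adjusted p = 0.0123). Without WT SuHx 0, WT SuHx 1 or Ahr-KO 1 its adjusted p was 0.0821, 0.0637 or 0.0694. Plaur had 291, 347 and 350 in Ahr-KO SuHx lung, against 865.5, 677 and 1350 in WT SuHx lung and 192.5, 305 and 210.1 in normoxia lung (-1.49 ± 0.26, adjusted p = 0.0438), and missed the threshold in 12 of 19 alternatives (adjusted p 0.0131 to 0.174). The Ahr-KO values lay between the WT groups for Lypd1 and overlapped normoxia lung for Plaur, and both genes went the opposite way from Ly6al.

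Between WT SuHx and normoxia lung, where 7.08% of all genes were higher and 6.39% lower by limma, the relatives of the 7 genes moved both ways. Among the same 25 Ly6/uPAR genes, Lypd1, Plaur and Ly6g6f rose and Ly6l, the merged row of Ly6l and RGD1565410, and Gpihbp1 fell in WT SuHx lung. Lypd1 had a log2 fold change of 4.48 ± 0.24 (adjusted p = 2.5e-05) and Ly6l one of -0.59 ± 0.15 (adjusted p = 0.0354). In Ahr-KO SuHx lung these rows did not do the same: Ly6l overlapped normoxia lung, whereas the merged row of Ly6l and RGD1565410 had 308, 259.5 and 296 in Ahr-KO SuHx lung, against 291, 375.5 and 383.5 in WT SuHx lung and 666, 659 and 499 in normoxia lung. That row stayed below normoxia lung in both SuHx groups, unlike Ly6al. In the calcium channel list 0 rose and 3 of 20 fell in WT SuHx lung, namely Cacna2d2, Cacnb4 and Cacng3, the last listed at 0 in every WT SuHx and Ahr-KO SuHx library and at 21.5, 13.6 and 11.5 in normoxia lung. Cacna2d4 had reads in every library of both SuHx groups.

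In the NEDD4 list 0 rose and 3 of 10 fell in WT SuHx lung (Wwp1, Smurf2 and the row of Hecw2 and Stk17b). In the list of iodide handling and thyroid hormone 1 of 16 rose and 3 fell. The gene that rose was Slc26a4, which encodes the iodide and chloride exchanger pendrin, with 476, 247 and 504 in WT SuHx lung, against 35.0, 35.8 and 33.0 in normoxia lung (log2 fold change 3.46 ± 0.33, adjusted p = 0.000399). It averaged 342.5 in Ahr-KO SuHx lung. The symporter Slc5a5 went the other way in WT SuHx lung, where it was listed at 0. Duox1 and the thyroid hormone receptor Thrb were among those that fell.

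Beside Grin2c, 6 other NMDA receptor genes were tested and 0 passed (limma; 1 at an unadjusted p under 0.05). Grina, an NMDA-receptor-associated protein, had 3064, 3091 and 3150 in Ahr-KO SuHx lung, against 3357, 3570 and 3988 in WT SuHx lung (log2 fold change -0.23 ± 0.15, adjusted p = 0.509). Grin3b had 641, 646 and 628, against 556.5, 618 and 466 (0.23 ± 0.14, adjusted p = 0.478). Grin3a, the glycine-binding GluN3A subunit, chosen after its values were seen, had 49.5, 45.2 and 50.2 in Ahr-KO SuHx lung, against 17.0, 13.0 and 20.1 in WT SuHx lung and 15.1, 23.0 and 16.9 in normoxia lung (1.5 ± 0.28, adjusted p = 0.0587). It had the arrangement of Grin2c, with both WT groups low. It just missed the threshold, and passed without limma's trend (0.0302) and with all 12 libraries in the fit (0.0361).

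Of 20 other voltage-gated calcium channel genes, 0 passed (limma; 3 at an unadjusted p under 0.05), with a median log2 fold change of 0.25. The row that merges Ankrd26 with Cacna1c, the main cardiac and smooth muscle channel gene, had 2769, 2439 and 1886 in Ahr-KO SuHx lung, against 1878, 2432 and 1178 in WT SuHx lung (0.41 ± 0.24, adjusted p = 0.459). The beta subunit Cacnb2 had 881, 756 and 701, against 749, 867 and 727 (-0.01 ± 0.13, adjusted p = 0.989). The closest relatives of Cacna2d4 are named for their kinship, after their values were seen. Cacna2d1 had 1176, 1272 and 1197 in Ahr-KO SuHx lung, against 952, 985 and 672 in WT SuHx lung (0.50 ± 0.14, adjusted p = 0.173), Cacna2d2 was at 0.58 ± 0.27 (adjusted p = 0.388) and Cacna2d3 at 0.06 ± 0.27 (adjusted p = 0.94).

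Among 10 ubiquitin ligases and adaptors of the NEDD4 family, to which the partner of Bean1 belongs, 0 passed (limma; 2 at an unadjusted p under 0.05), with a median of 0.04. Nedd4 had 21657, 22073 and 16770 in Ahr-KO SuHx lung, against 18909, 20964 and 11039 in WT SuHx lung (0.29 ± 0.23, adjusted p = 0.586). Of 8 other anoctamins 0 passed (limma; 1 at an unadjusted p under 0.05), with a median of 0.07. Ano6, a calcium-dependent lipid scramblase, had 3788, 3430 and 2660 in Ahr-KO SuHx lung, against 2951, 3503 and 2624 in WT SuHx lung (0.12 ± 0.15, adjusted p = 0.747). Lrrc3, the tested relative of Lrrc3b, had 126, 99.2 and 129.9, against 63.4, 187 and 110.2 (0.10 ± 0.38, adjusted p = 0.92).

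Beside Slc5a5, 7 other SLC5 transporters were tested and 0 passed (limma; 1 at an unadjusted p under 0.05). Slc5a6, the multivitamin transporter, had 680, 661 and 549 in Ahr-KO SuHx lung, against 711, 653 and 602.5 in WT SuHx lung (-0.06 ± 0.12, adjusted p = 0.846). The glucose transporter Slc5a1 had 320.4, 368 and 183, against 408, 323 and 488.5 (-0.52 ± 0.30, adjusted p = 0.462). Of 16 further genes of iodide handling and thyroid hormone, 0 passed (limma; 4 at an unadjusted p under 0.05), with a median of 0.42, and 8 were higher in every Ahr-KO library, beside 11.7% of all genes. Among these 8, named because of their values, were the dual oxidases Duox1 and Duox2 with their maturation factors Duoxa1 and Duoxa2, the iodotyrosine deiodinase Iyd, the chloride channel Ano1 and the deiodinase Dio3. For Iyd and Dio3 the signal was low. Their lowest Ahr-KO value was barely above the highest WT SuHx value (2.28 against 2.23 for Iyd, 5.42 against 5.35 for Dio3), so they add little to that count. Thra, the thyroid hormone receptor with the highest mean of the list, had 3152, 2665 and 2274 in Ahr-KO SuHx lung, against 2838, 2509 and 2798 in WT SuHx lung (-0.02 ± 0.22, adjusted p = 0.974). Ano1 had 1215, 1512.5 and 1219.5, against 1160, 1158 and 765.5 (0.37 ± 0.26, adjusted p = 0.53). Duox2, chosen after its values were seen, had 16.2, 17.7 and 44.8 in Ahr-KO SuHx lung, against 2.84, 8.41 and 6.70 in WT SuHx lung (1.91 ± 0.52, adjusted p = 0.168). The 5 tested thyroid tissue markers overlapped, with a summed signal of 476 to 802 in Ahr-KO SuHx lung and 483 to 733 in WT SuHx lung.

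For each of the 7 genes, the 3 genes whose profile over the 12 libraries lay nearest were found by the root mean square difference of centred log2 values. The nearest to Bean1 were Tcp11x2 at 0.305, the sialyltransferase gene St8sia6 at 0.319 and the protocadherin gene Pcdh19 at 0.327, where Bean1 itself varied by 0.969 about its mean. Pcdh19 had 646, 638 and 536 in Ahr-KO SuHx lung, 249, 357 and 274 in WT SuHx lung, 1407, 1404 and 1509 in ECs and 713, 711 and 519 in normoxia lung. It is high in ECs and low in WT SuHx lung, as Bean1 is. Ly6al had no near neighbour: the nearest, Fcrl2, Rpl39 and Prss30, lay at 1.70, 1.81 and 1.86, beside its own 2.93.

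The nearest to Grin2c were the cadherin gene Cdh22 at 0.440, the neurexophilin gene Nxph3 at 0.462 and the thrombospondin gene Thbs3 at 0.484. Lrrc3b was nearest to the exchanger gene Slc24a1 at 0.539, to Nov at 0.550 and to Grin2c at 0.553, the closest pair among the 7. Nov encodes a matricellular protein of the CCN family and had 2970, 3459 and 3743 in Ahr-KO SuHx lung, 2054, 1958 and 1689 in WT SuHx lung, 1322, 1263 and 1053 in ECs and 947.5, 1307 and 1548 in normoxia lung. Ano5 was nearest to Ly49i9 at 0.618, Sidt1 at 0.644 and Car6 at 0.648. Cacna2d4 was nearest to the row of Ifnar2 and LOC102554317 at 0.512, to Pirt at 0.532 and to Lgi4 at 0.546, and Slc5a5 to Tnr at 0.541, the macrophage scavenger receptor gene Cd163 at 0.696 and the secreted WNT inhibitor gene Sfrp1 at 0.700. These measures include the libraries on which the genes were chosen and are a description.

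Markers of 16 cell types were set beside the genes, and in all 16 lists 0 markers passed between Ahr-KO and WT SuHx lung (limma). The list that stood furthest from 0 was cardiac muscle, with a median log2 fold change of 3.96 and 5 markers at an unadjusted p under 0.05. In it 7 of 8 markers were higher in every Ahr-KO library, beside 11.7% of all genes. Each of the other lists had 0 to 3 markers at an unadjusted p under 0.05. The share of all genes at that unadjusted level was not computed, so such counts here, and for the relatives and neighbours above, are a description only. The summed cardiac signal was 7119, 5670 and 25848 in the Ahr-KO SuHx libraries, against 3482, 2896 and 2625 in the WT SuHx libraries and 1625, 834 and 11865 in normoxia lung. Myh6, the atrial myosin heavy chain, was at 1228, 673 and 4900 in Ahr-KO SuHx lung, listed at 0 in every WT SuHx library, and at 4.77, 0 and 2880 in normoxia lung. Ahr-KO 2 and normoxia 2 thus carried the most cardiac RNA within their groups.

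The values of the 7 genes are set beside this RNA as a description. Ahr-KO 2, with the largest cardiac sum, was the lowest Ahr-KO library for Ly6al, Bean1, Grin2c and Cacna2d4, the highest for Ano5 and Lrrc3b, and between the others for Slc5a5. Normoxia 2 had a larger cardiac sum than Ahr-KO 0 and 1. Its Ly6al, Grin2c, Ano5, Lrrc3b and Slc5a5 were below every Ahr-KO value, and its Bean1 and Cacna2d4 lay within the Ahr-KO range. Normoxia 0 and 1, with Myh6 at 4.77 and 0, had more Ly6al, Bean1, Ano5, Cacna2d4 and Slc5a5 than every WT SuHx library, but not more Lrrc3b. For Grin2c normoxia 1, at 248, was just above the highest WT SuHx library, at 239, and normoxia 0, at 176, was not. Without Ahr-KO 2 and normoxia 2, an alternative chosen after the data were seen, the log2 fold change of Ahr-KO against WT SuHx lung was 7.0 for Ly6al, 1.76 for Bean1, 1.72 for Grin2c, 1.51 for Ano5, 1.97 for Lrrc3b and 2.50 for Cacna2d4. Ahr-KO 0 and 1 still held more cardiac RNA than WT SuHx lung. Every Ahr-KO library had a larger cardiac sum than every WT SuHx library, so cardiac RNA and genotype cannot be told apart here. The part of this RNA in the differences was not tested.

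**Figure D4:**
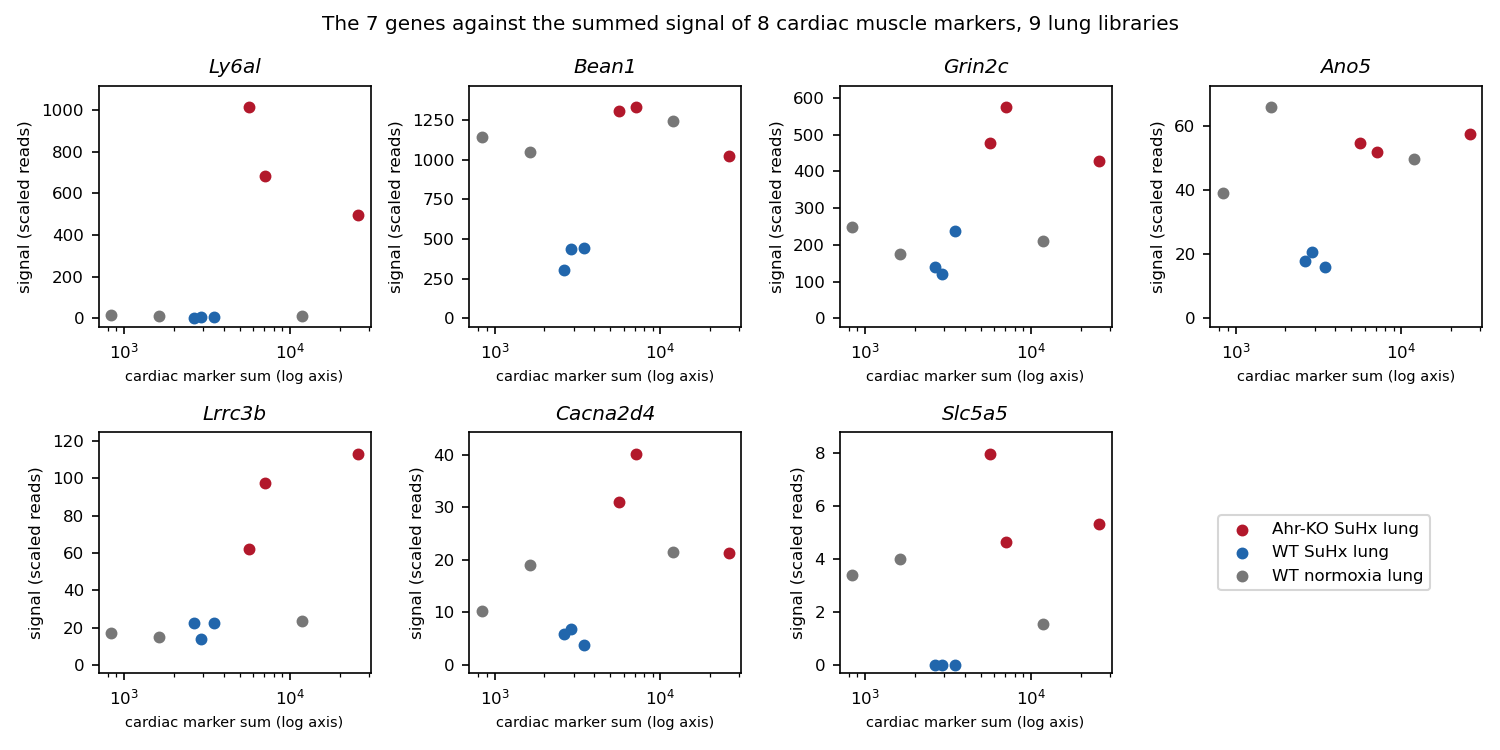
Signal of each of the 7 genes (linear axis) against the summed signal of 8 cardiac muscle markers (log axis) in the 9 lung libraries, with 1 point per library. The Ahr-KO SuHx libraries all have larger cardiac sums than the WT SuHx libraries. Normoxia 2, at a cardiac sum of 11865, lies below the Ahr-KO SuHx libraries for Ly6al, Grin2c, Ano5, Lrrc3b and Slc5a5 and within their range for Bean1 and Cacna2d4.

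The adipocyte sum was 250, 291 and 2546 in the Ahr-KO SuHx libraries, against 294, 170.5 and 214.5 in the WT SuHx libraries. It was high in Ahr-KO 2 alone, where Adipoq was at 387, and Ahr-KO 0 and 1 lay within the WT SuHx range. The neuronal sum, of interest for Grin2c and Bean1, was lower without overlap, at 164 to 252 in Ahr-KO SuHx lung and 298 to 314 in WT SuHx lung. Its markers disagreed: of 5 tested, 1 (Snap25) was higher in every Ahr-KO library, beside 11.7% of all genes. Another, Syt1, was lower in every Ahr-KO library, for which the share of all genes was not computed. Syt1 was also at 1181 to 1875 in ECs. Snap25 was near the limit of detection, with 2.32, 2.66 and 9.12 in Ahr-KO SuHx lung, against 0, 1.53 and 0 in WT SuHx lung. The skeletal muscle sum, of interest for Ano5, was 3609 to 3661 in Ahr-KO SuHx lung and 3166 to 4591 in WT SuHx lung. Most of it was the merged row of Lsp1 and Tnnt3, at 3091 to 3322 in Ahr-KO SuHx lung, so the sum says little about the other markers. Of 9 tested markers, 1 was higher in every Ahr-KO library, beside 11.7% of all genes, and 0 lower. That marker, Ckm, had 79.7, 50.5 and 441.5 in Ahr-KO SuHx lung, against 10.4, 5.35 and 3.72 in WT SuHx lung. The Schwann cell and glia sum was 1207 to 1537 in Ahr-KO SuHx lung and 1006 to 1122 in WT SuHx lung without overlap, and 3 of its 6 markers had an unadjusted p under 0.05. The fibroblast sum was 54097 to 70127 in Ahr-KO SuHx lung and 41750 to 50108 in WT SuHx lung, and the airway epithelium sum 144637 to 209416 in Ahr-KO SuHx lung and 128981 to 141680 in WT SuHx lung, both also without overlap. In each of these lists only 1 of 6 markers was higher in every Ahr-KO library, namely Col1a1 and Sec14l3, beside 11.7% of all genes. The macrophage sum went the other way without overlap, at 13354 to 16105 in Ahr-KO SuHx lung and 17685 to 17786 in WT SuHx lung. Most of it was the merged row of Csf1r and Pdgfrb, a pericyte marker, and that row overlapped. Of 5 tested macrophage markers, 1 (Mrc1) was higher in every Ahr-KO library, beside 11.7% of all genes. Another 2 (C1qa and C1qb) were lower in every Ahr-KO library, for which the share of all genes was not computed. The part of these cell types in the differences of the 7 genes was not tested. The T and NK cell sum, of interest for Ly6al because mouse Ly6a marks activated T cells, was 1840 to 3006 in Ahr-KO SuHx lung and 2101 to 2845 in WT SuHx lung.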

How the data were processed

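Trizol and a column kit were used for RNA, per the labels' protocols, and the submitters' processing notes name the rn6 genome build and FastQC. For the aligner, the counter, the strand and the normalization: not given in the sources used here. The deposited values are a signal. To judge from the values, the authors scaled each library's reads by a single factor, since 79.9% to 81.7% of the values above 0 are multiples of 1 step (tolerance 0.05 reads). The others are fractions, so no count model was used. Table totals were 20.6 to 27.1 M. Of 19230 rows, 1046 name more than 1 gene, and related, overlapping or antisense genes may share reads. All sample columns were used (0 belonged to other samples). Columns were assigned to groups by name, since their suffixes do not match the numbers in the sample titles.

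limma 3.58.1 (R 4.3.3) was run on log2(signal + 1), with group means, a variance trend and two-sided tests, for rows whose mean signal over the libraries in the fit was 1 or more. P-values were adjusted over all tested genes by Benjamini-Hochberg, with a threshold of 0.05. Fold changes are on this log2 scale and understate the change of low genes. The 9 lung libraries shared 1 fit, and ECs and normoxia lung another. The procedure was tested on simulated data. Deviations of same-suffix libraries of Ahr-KO SuHx and normoxia lung correlated at 0.106, 0.182 and 0.229, all over 0.1, a pairing seen in the data and not given by the labels. No test is given for that comparison. The labels do not say whether replicates are separate animals, so p-values may measure only technical spread between these samples.

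The 7 genes, their relatives and the markers were chosen with earlier results of these data known. Relatives were named where they passed, or else as the 2 with the highest mean of a list. Other relatives named with values are marked as chosen after their values were seen. 1 gene that passed in the iodide list is not reported here. Alternatives were limma without trend, quantile normalization, equal totals, no filter or a mean of 5, a pseudocount of 0.1, other sets of libraries, the column suffix as a replicate block, a minimum log2 fold change of 1 in size, and each library left out. Leaving out Ahr-KO 2 and normoxia 2 together was added after seeing the data. Gene order and promoters come from RefSeq (GRCr8), and no coordinates of the table's own build were used.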

Additional observations from a re-analysis of the deposited data

How the results depend on the processing

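Over the 3 lung comparisons 387 of 396 alternative values moved by less than 1 SD between replicates. The count of genes called in Ahr-KO against WT SuHx lung (76) was 47 without limma's trend, 126 with all 12 libraries, and 32 to 100 with 1 library left out; the single libraries that moved it by over 1.5 times were WT SuHx 0 (32), WT SuHx 1 (39), WT SuHx 2 (39), Ahr-KO 0 (37), Ahr-KO 1 (35) and normoxia 0 (48). For WT SuHx against normoxia lung (2052) it was 748 at a log2 fold change of 1 or more in size, 862 to 2380 with 1 library left out (WT SuHx 0 862, WT SuHx 2 1115, normoxia 0 953, normoxia 1 1148), and 3385 with the replicate block. For ECs against normoxia lung (8539) it was 4409 at a log2 fold change of 1 or more in size and 7239 to 8069 with 1 library left out. The causes were not tested.

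In none of the 3 comparisons with a test did all same-suffix libraries correlate over 0.1 in their deviations: the values were -0.00589, 0.0938 and 0.248 for Ahr-KO and WT SuHx lung, -0.0201, 0.108 and 0.150 for WT SuHx and normoxia lung, and 0.0207, 0.0695 and 0.137 for ECs and normoxia lung. The replicate block gave 82 calls for Ahr-KO against WT SuHx lung and 8559 for ECs.

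Of 97 alternative values of the 7 genes in ECs against normoxia lung, 77 kept their direction and side of the threshold, 11 lost a call (Ly6al and Grin2c), 7 gained one (Slc5a5 and Ano5) and 2 reversed, both under quantile normalization (Lrrc3b 0.53, Cacna2d4 0.38). Bean1 kept its call in all 14. Equal totals moved the median log2 fold change of all genes there to -0.29, beside -0.05, and gave 2816 higher and 6016 lower calls, beside 3969 higher and 4570 lower.

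Among relatives and neighbours, 310 of 342 alternative values were alike. Those that reversed were Cacnb2 (0.0183 with equal totals, 0.0677 without Ahr-KO 2 and normoxia 2, -0.0973 to 0.072 with 1 library left out), Lrrc3 (-0.0555 under quantile normalization, -0.284 to 0.487 with 1 left out), Slc5a6 (0.0355 without Ahr-KO 2 and normoxia 2, -0.119 to 0.0355 with 1 left out) and Thra (0.00343 with equal totals, 0.0963 without Ahr-KO 2 and normoxia 2, -0.139 to 0.0963 with 1 left out). Ly6al and Cacna2d4 rest on at most 12 and 9 reads a library in WT SuHx lung, and Slc5a5 on none, which limits the precision of their ratios.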
